A study of Homo sapiens with 8 samples.

Results

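The comparison of forskolin with vehicle in NCI-H295R cells was a comparison of 2 lists of open chromatin regions, and its members were all 51095 peaks of the forskolin list and all 61016 peaks of the vehicle list, 112111 of the 200358 peaks in the 4 lists of the series. A vehicle peak counted as kept if a forskolin peak overlapped it by 1 bp or more, and otherwise as lost. A forskolin peak was counted as gained where no vehicle peak overlapped it, and otherwise as shared. NCI-H295R is an established human adrenocortical carcinoma line that makes steroids, and the libraries were ATAC-seq, in which a transposase cuts DNA where chromatin is accessible. Forskolin cells were kept in vehicle for 48 h and then in 10 µM forskolin for 48 h, and vehicle cells were kept in DMSO for 96 h. Set beside them in places are the lists of cells given the EZH2 inhibitor EPZ-6438 at 62 µM or the CBP/beta-catenin inhibitor PRI-724 (below, the CBP inhibitor) at 26 µM, each for 96 h. The EZH2 inhibitor list holds 41086 peaks and the CBP inhibitor list 47161. Peak counts set side by side across the 4 lists are not corrected for list length. Each group had 2 libraries of 50000 cells, which the labels call biological replicates, but a single peak list was made per group. The spread between libraries is therefore unknown, no test was possible, and the intervals below (95% Wilson) cover counting error only.

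Forskolin activates adenylyl cyclase directly and so raises cAMP, the messenger through which the pituitary hormone ACTH acts on the adrenal cortex. cAMP frees the catalytic subunits of protein kinase A, which phosphorylate CREB and other factors and raise the transcription of steroid-making enzymes. NCI-H295R cells carry an activating mutation in beta-catenin, the effector of the Wnt pathway, which in the adrenal cortex is the counterpart of the cAMP pathway in setting zone identity.

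The adrenocortical label was checked first by peaks at gene ends, meaning no more than 1 kb from the start or the end of a gene's annotation. Of 8 adrenocortical genes, 7 had such a peak with forskolin and 6 with vehicle: INHA, STAR, NR5A1, CYP17A1, CYP11A1 and MC2R had one in both lists, CYP21A2 had one with forskolin only, and HSD3B2 had none. Over all 19974 protein-coding genes 13029 had one with forskolin and 13509 with vehicle, so a gene-end peak alone does not set these genes apart. Endothelial genes had a gene-end peak at 1 of 9 genes in each list, immune genes at 4 of 10 with forskolin and 2 of 10 with vehicle, fibroblast genes at 4 of 10 with forskolin and 3 of 10 with vehicle, and chromaffin genes, of the neighbouring adrenal medulla, at 6 of 10 in each list. A single small peak, present with forskolin only and lying at the CSF1R promoter, was counted for both CSF1R (immune) and PDGFRB (fibroblast). PTPRC, CD3E and CD14 (blood cells), PECAM1, CDH5 and VWF (endothelium) and TH, PNMT and PHOX2A (chromaffin cells) had no gene-end peak in either list. The part of other cells in the results was not tested.

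Promoters that overlapped gained peaks held the letters of an AP-1 site more often than promoters that overlapped lost peaks. The shares are given after the gene groups. The stretches below are the 250 bases before the annotated transcription start, from RefSeq on GRCh38.p14, read 5' to 3' along the gene. CYP21A2 (steroid 21-hydroxylase) and SP5 (a Wnt target) are shown because they belong to the steroid and Wnt gene lists and their promoter peak was gained or lost. CD44, the cell adhesion gene that is another Wnt target with a lost promoter peak, is shown beside SP5 and held none of the letters marked. GIPR (the receptor of the gut hormone GIP), CYP19A1 (aromatase, which turns androgens into oestrogens) and PTAFR (the receptor of platelet-activating factor) were picked after their values were seen, to show the NR5A1 and AP-1 letters in promoters under gained peaks. Capitals mark the letters TGACG in CYP21A2, CAAGGTCA or its reverse complement in GIPR and PTAFR, TGANTCA in CYP19A1 and PTAFR, and CTTTGAA or CTTTGAT on either strand in SP5. The windows are chr6:32038165-32038414 (plus strand), chr19:45667971-45668220 (plus), chr15:51243916-51244165 (minus), chr1:28193857-28194106 (minus), chr2:170715087-170715336 (plus) and chr11:35138921-35139170 (plus).
CYP21A2, peak gained: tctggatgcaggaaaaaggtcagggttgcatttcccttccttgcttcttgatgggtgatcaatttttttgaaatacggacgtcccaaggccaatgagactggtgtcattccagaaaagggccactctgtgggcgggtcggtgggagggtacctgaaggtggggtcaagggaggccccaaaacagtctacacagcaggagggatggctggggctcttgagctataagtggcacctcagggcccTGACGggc
GIPR, peak gained: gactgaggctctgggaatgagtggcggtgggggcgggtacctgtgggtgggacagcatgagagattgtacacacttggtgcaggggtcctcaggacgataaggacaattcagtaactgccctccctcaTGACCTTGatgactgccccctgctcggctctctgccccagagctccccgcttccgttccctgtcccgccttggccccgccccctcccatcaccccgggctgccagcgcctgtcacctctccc
CYP19A1, peak gained: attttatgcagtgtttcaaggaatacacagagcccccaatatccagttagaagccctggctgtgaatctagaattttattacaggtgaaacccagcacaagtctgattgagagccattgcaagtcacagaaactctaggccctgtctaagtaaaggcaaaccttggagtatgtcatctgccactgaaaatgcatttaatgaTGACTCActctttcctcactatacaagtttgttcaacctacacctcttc
PTAFR, peak gained: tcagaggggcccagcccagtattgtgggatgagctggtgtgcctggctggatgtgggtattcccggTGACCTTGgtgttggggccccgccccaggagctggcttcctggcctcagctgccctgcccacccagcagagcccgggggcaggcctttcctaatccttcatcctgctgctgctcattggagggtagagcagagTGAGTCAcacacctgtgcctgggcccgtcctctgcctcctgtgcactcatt
SP5, peak lost: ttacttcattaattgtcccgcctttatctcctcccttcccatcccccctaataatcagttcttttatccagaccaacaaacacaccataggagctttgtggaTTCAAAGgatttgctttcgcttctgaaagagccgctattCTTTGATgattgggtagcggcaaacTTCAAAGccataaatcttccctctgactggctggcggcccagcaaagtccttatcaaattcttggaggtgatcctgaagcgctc
CD44, peak lost: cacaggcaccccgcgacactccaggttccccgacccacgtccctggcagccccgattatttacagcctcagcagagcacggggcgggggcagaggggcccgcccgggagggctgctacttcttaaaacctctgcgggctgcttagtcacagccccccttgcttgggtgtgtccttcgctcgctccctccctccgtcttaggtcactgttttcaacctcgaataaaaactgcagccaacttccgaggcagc

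Over the whole genome, forskolin cells had fewer peaks, and those peaks were mostly ones already present with vehicle. Of the forskolin peaks 8100 were gained (15.9%), and of the vehicle peaks 18455 were lost (30.2%). In base pairs, 6.162 Mb were covered by forskolin peaks only, 13.15 Mb by vehicle peaks only and 29.58 Mb by both, which is 82.76% of the forskolin list and 69.22% of the vehicle list. The larger number of losses went with the longer vehicle list: with both lists held to their 51095 peaks of largest area, 10570 forskolin peaks (20.69%) were gained and 11147 vehicle peaks (21.82%) were lost. Depth per library is not recorded in the peak lists, and its part in the length of a list was not tested.

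The gained and lost peaks were small. The authors' peak caller gives each peak an area, the summed significance over its length, with a floor of 200 in both lists. The median area was 535.5 over all forskolin peaks and 581.4 over all vehicle peaks. Since depth is unknown, areas are not directly comparable between the lists. A lower area with forskolin does not by itself show a less open region. Gained peaks had a median area of 294.1 and a median width of 362 bp, against 638.7 and 581 bp for shared peaks of the forskolin list. Lost peaks had a median area of 306.3 and a median width of 374 bp, against 877.2 and 664 bp for kept peaks of the vehicle list. In the lowest area decile 41.06% of forskolin peaks were gained and 75.55% of vehicle peaks were lost, and in the highest decile 2 of 5109 forskolin peaks were gained and 0 of 6101 vehicle peaks were lost, which allows a share of up to 0.0492% (3 counts). The calls were rarely matters of a shifted edge: 43 gained peaks lay within 100 bp of a vehicle peak and 48 lost peaks within 100 bp of a forskolin peak, and the median distance to the other list was 10279 bp for gained and 14707 bp for lost peaks. Of the kept vehicle peaks 94.42% were covered over at least 50% of their length.

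**Figure D1:**
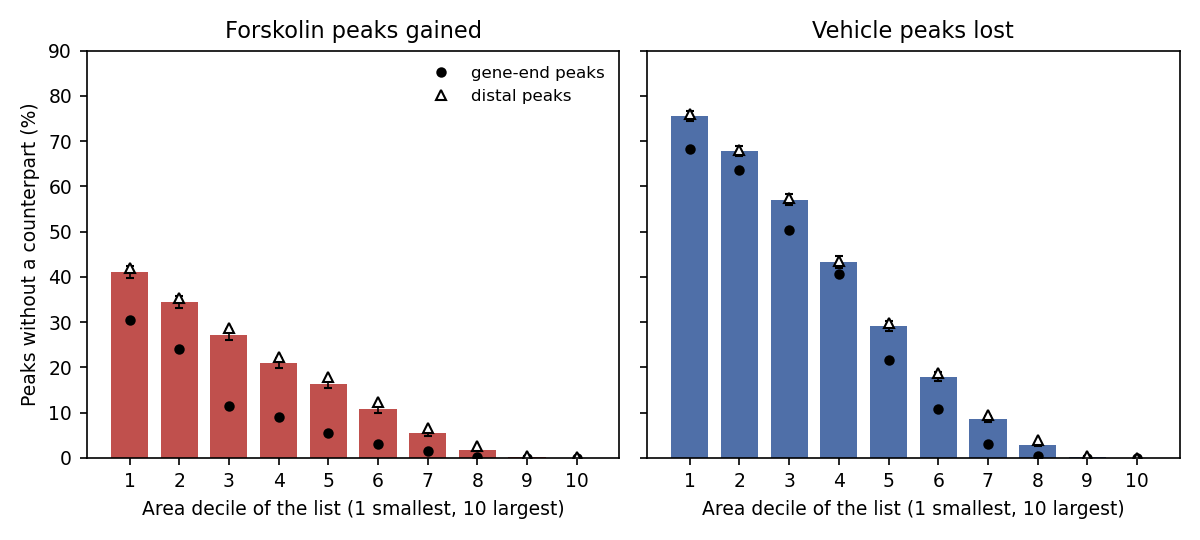
Share of forskolin peaks gained (left) and of vehicle peaks lost (right) by area decile of the peak's own list, with 95% Wilson intervals as black bars; filled circles are gene-end peaks and open triangles the other (distal) peaks. Shares fall from 41.06% (gained) and 75.55% (lost) in decile 1 to under 1% in deciles 9 and 10, and in deciles 1 to 8 gene-end peaks lie below distal peaks in both panels.

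By position, changes were scarcest at gene ends. Gene-end peaks were gained in 3.114% of cases with forskolin, against 6.407% expected from their areas, and lost in 8.568% of cases with vehicle, against 10.59% expected. The expected share here and below is the mean share, over 20 area bins of the same list, at the areas the peaks had. Peaks outside genes and over 100 kb from any gene end were gained in 23.32% of cases (19.85% expected), the highest gained share of the 6 kinds of place compared. The highest lost share was inside genes at over 10 kb from their ends, with 38.42% (35.84% expected). Of the 13509 protein-coding genes with a vehicle gene-end peak 4.94% had none with forskolin, and of the 6465 genes without one 2.89% had one with forskolin. In 631 of the 667 genes that lost it a lost peak lay there, and in 160 of the 187 genes that gained it a gained peak lay there, the others being peaks of both lists whose edge reached the 1 kb limit in a single list. The gene-end peaks in question were small, with a median area of 298.3 at genes that gained one and of 359.4 at genes that lost one, against 1808 (forskolin) and 2477 (vehicle) at genes with a gene-end peak in both lists.

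Peaks in both lists held their rank at gene ends and moved more elsewhere. For 40665 peaks with a single counterpart on each side, the area was turned into a percentile among those pairs. Spearman's rho across these pairs, given as a description because each group is a single list, was 0.84 over all, 0.97 over 11388 gene-end pairs and 0.72 over 29277 distal pairs. The forskolin percentile was over 10 points higher in 18.6% of pairs and over 10 points lower in 20%. Shifts of over 30 points upward numbered 1904, of which 88 were at gene ends, and downward 1432, of which 153 were at gene ends. Of the pairs in the top vehicle decile, 90.09% were in the top forskolin decile. The forskolin peak was 0.9244 times as wide as its vehicle counterpart in the median, and the summits lay 20 bp apart in the median.

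**Figure D2:**
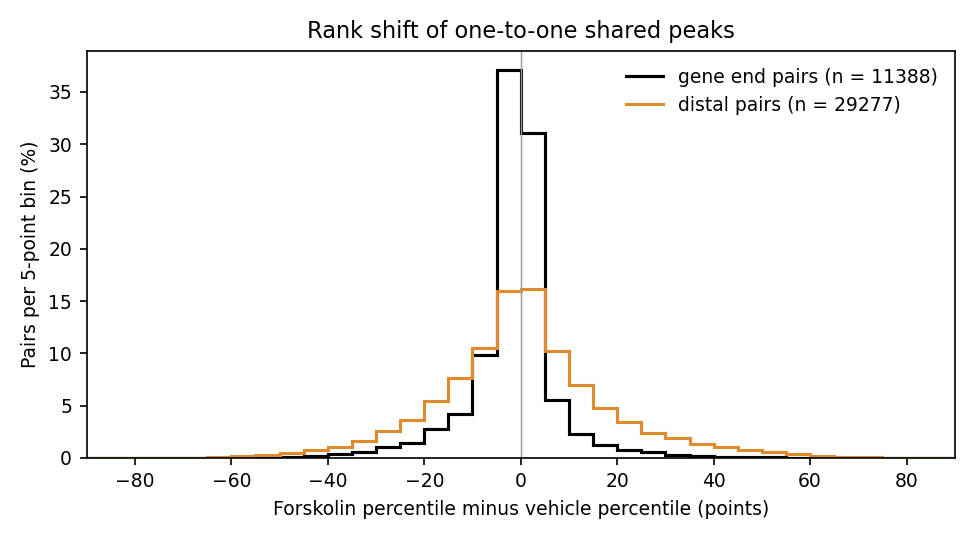
Percentile with forskolin minus percentile with vehicle for shared peaks with a single counterpart, in bins of 5 points, as a percentage of the gene-end pairs (black, n = 11388) or distal pairs (orange, n = 29277). Gene-end pairs pile up near 0, and distal pairs spread wider on both sides.

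The largest shifts of rank, by the naming rule, were mostly distal, and only some of them are named here. The largest rise, of a peak inside MAMDC4, was to percentile 86.12 with forskolin from 0.3209 with vehicle. SMAD6, which encodes an inhibitor of BMP signalling, had a peak inside the gene at percentile 79.03 with forskolin and 1.573 with vehicle. Its width was 1960 bp with forskolin and 229 bp with vehicle. A peak 52167 bp from NR2F2, the gene of the nuclear receptor COUP-TFII, was at percentile 78.67 with forskolin and 3.685 with vehicle. A peak at the end of NPC1L1, an intestinal cholesterol transporter, was at percentile 89.08 with forskolin and 12.03 with vehicle. It lies between 44 and 45 Mb of chromosome 7, where 77 of 197 forskolin peaks were gained (26.1 expected from their areas). The NPC1L1 peak was 3611 bp wide with forskolin and 917 bp with vehicle. The peak caller's -log10 p at its summit was nearly the same, 3.448 with forskolin and 3.397 with vehicle. In the other direction, the peak at the end of CSRNP1, a nuclear protein gene first found as induced by AXIN1, was at percentile 1.659 with forskolin and 75.11 with vehicle, its width 350 bp with forskolin and 1451 bp with vehicle. A peak inside IGF1R, the receptor of insulin-like growth factors, was at percentile 2.859 with forskolin and 68.42 with vehicle, and one inside ZNF385A at 1.196 with forskolin and 75.49 with vehicle. At gene ends, C1R, a complement protease gene, was at 1.1 with forskolin and 59.0 with vehicle, and SUFU, the gene of an inhibitor of Hedgehog signalling, at 6.906 with forskolin and 63.56 with vehicle.

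In the response pathway itself, the share of peaks kept was near that of all genes once ADCY1 was left out. Each peak went to the protein-coding gene whose start or end lay closest to its summit, up to a distance of 100 kb. Over all assigned peaks, 13.9% of forskolin peaks were gained and 28.2% of vehicle peaks were lost. The 23 genes of cAMP production and protein kinase A gained 31 of 138 forskolin peaks (22.46%, 16.76% expected) and kept 109 of 146 vehicle peaks (74.66%, 66.01% expected). ADCY1, an adenylyl cyclase gene on chromosome 7, held 22 of the gained peaks. Without ADCY1 the list gained 10.47% of 86 forskolin peaks (14.6% expected) and kept 69.44% of 108 vehicle peaks (70.09% expected), so both differences changed sign. MC2R, the ACTH receptor, had 3 peaks with forskolin, 0 with the EZH2 inhibitor, 0 with the CBP inhibitor and 2 with vehicle. The MC2R peak 95 bp from an annotated end had an area of 460.9 with forskolin and 215 with vehicle, and 56.41% of forskolin peaks and 96.27% of vehicle peaks were larger. The neighbouring MC2R peak, with its forskolin summit 608 bp from the gene, had areas of 291.8 with forskolin and 338.3 with vehicle, and a peak 19091 bp from the gene was gained with an area of 393.4.

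At GNAS and PRKAR1A a gene-end peak was missing with forskolin. GNAS, which encodes the stimulatory G protein that couples receptors to adenylyl cyclase, had a vehicle peak of area 650.8 at chr20:58839509-58840294, 94 bp from an annotated gene end, which was lost. GNAS has several alternative promoters, and the larger peaks farther inside the gene were kept, among them one with areas of 2049 with forskolin and 2298 with vehicle. PRKAR1A, the regulatory subunit gene of protein kinase A, lost a peak of area 593.5 that lies 380 bp from its annotated end and also inside ARSG. Of the 5 RefSeq promoter windows of PRKAR1A, 4 had a peak in both lists. The 19 phosphodiesterase genes, whose products degrade cyclic nucleotides, gained 15 of 85 forskolin peaks (17.65%, 16.29% expected) and kept 69 of 109 vehicle peaks (63.3%, 68.33% expected). PDE4D gained 2 of 5 forskolin peaks and lost 7 of 10 vehicle peaks, with 3.238 losses expected, and the lost ones included peaks of area 1154 and 973.8 and the gene-end peak of area 434. PDE11A gained 1 of 4 and lost 7 of 10 (4.334 expected). PDE8A, which encodes a phosphodiesterase of high affinity for cAMP, gained 3 of 7 and lost 3 of 6 (0.7558 expected). PDE5A, which acts on cGMP, had 9 peaks in each list, none gained and none lost.

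Most genes in a list of CREB factors and cAMP-induced transcripts had a gene-end peak with forskolin and with vehicle. The 34 genes of CREB factors and cAMP-induced transcripts gained 19 of 131 forskolin peaks (14.5%, 12.73% expected) and kept 110 of 141 vehicle peaks (78.01%, 74.98% expected). A gene-end peak was present at 30 of the 34 with forskolin and 31 with vehicle, against 13029 of all 19974 genes with forskolin and 13509 with vehicle. ATF3, NFIL3 and SIK1 had none in either list. The RefSeq promoter windows of NFIL3 nevertheless had a peak in both lists, so its promoter was not closed. SIK1 had no assigned peak of any kind in either list. That does not show a closed promoter, since how well reads can be placed at SIK1 was not tested. Of the 31 with a vehicle gene-end peak, 30 had one with forskolin, the exception being SGK1, the serum and glucocorticoid kinase gene, whose peak of area 635.4 was lost. A larger SGK1 peak inside the gene was kept, with areas of 2703 with forskolin and 4073 with vehicle. EGR1, an immediate early transcription factor, had 3 peaks with forskolin and 1 with vehicle. The shared EGR1 promoter peak had areas of 7756 with forskolin and 9162 with vehicle, with a percentile shift of 0.04 points. A peak of area 630.8 at chr5:138469440-138470588, 546 bp from the gene's other end, was gained. The orphan receptor gene NR4A3 gained 2 of 6 forskolin peaks and lost 0 of 4 vehicle peaks, and JUN, JUND, NFIL3 and RGS2 gained 2 each. NR4A1, which encodes another orphan receptor induced by ACTH, gained 1 of 8 forskolin peaks and lost 1 of 9 vehicle peaks. FOS and KLF4 gained and lost 0 each.

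Among steroid genes CYP21A2, CYP11A1 and NR5A1 held most of the gained peaks, and STAR gained none, with 0.2427 expected. The 20 genes of steroid synthesis and adrenal identity gained 12 of 55 forskolin peaks (21.82%, 14.6% expected) and kept 43 of 58 vehicle peaks (74.14%, 72.04% expected). The gained share minus expectation was 7.214 points over all peaks and -1.182 points at areas of at least 400. CYP21A2 had 4 peaks with forskolin, 1 with the EZH2 inhibitor, 1 with the CBP inhibitor and 1 with vehicle. Its promoter, shown above, lay under a gained peak of area 344.8 at chr6:32038061-32038509, and the larger gained peak, of area 1052 at chr6:32045938-32047479, lay inside the overlapping gene TNXB. CYP21A2 and TNXB have near-identical copies next to them, so reads there may be split or misplaced and these peaks are uncertain. NR5A1, which encodes steroidogenic factor 1, had 5 peaks with forskolin, 3 with the EZH2 inhibitor, 3 with the CBP inhibitor and 3 with vehicle. Both gained NR5A1 peaks lay inside the gene, at chr9:124487598-124488498 (area 532.1) and chr9:124488660-124489613 (area 498.2). The NR5A1 promoter peak was shared, with areas of 2493 with forskolin (9.318% of peaks larger) and 3644 with vehicle (6.313% larger).

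CYP11A1, the side-chain cleavage enzyme that begins steroid synthesis, gained 3 of 8 forskolin peaks (1.258 expected) and lost 1 of 6 vehicle peaks (0.7765 expected). The gained ones had areas of 214.2, 255.7 and 435.4, and its gene-end peak had areas of 717.8 with forskolin and 1267 with vehicle. The 5 shared pairs of CYP11A1 had a median shift of 1.736 points. STAR brings cholesterol into the mitochondrion and is the classic gene induced by cAMP in these cells. It gained 0 of 3 forskolin peaks (0.2427 expected) and lost 3 of 6 vehicle peaks (2.256 expected), both near expectation. The lost STAR peaks were small, with areas of 354.6, 215.8 and 211. The STAR gene-end peak had areas of 866.7 with forskolin and 1325 with vehicle. The peak 3100 bp from the gene had areas of 1837 with forskolin, where 14.55% of peaks were larger, and 1566 with vehicle, where 20.76% were larger. The 3 shared pairs of STAR had a median shift of -4.23 points. CYP17A1, POR and GATA4 gained and lost 0 each. CYP11B1 and CYP11B2, near-identical neighbours that complete cortisol and aldosterone and between which reads may be misplaced, had small counts. CYP11B1 had 0 forskolin peaks and 1 vehicle peak. CYP11B2 had 2 forskolin peaks, 0 of them gained, and 4 vehicle peaks, 2 of them lost (1.955 expected). The 14 genes that regulate aldosterone gained 13 of 74 forskolin peaks (17.57%, 13.65% expected) and kept 59 of 86 vehicle peaks (68.6%, 72.14% expected). Among them VSNL1, which encodes a calcium sensor, gained 3 of 8 (0.595 expected) and lost 6 of 11 (2.79 expected). CACNA1D, a calcium channel gene, gained 4 of 8 (1.565 expected) and lost 5 of 9 (3.113 expected). The 23 cholesterol supply genes lay close to expectation, with 13 of 97 forskolin peaks gained (13.4%, 14.82% expected) and 84 of 113 vehicle peaks kept (74.34%, 73.72% expected).

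**Figure D3:**
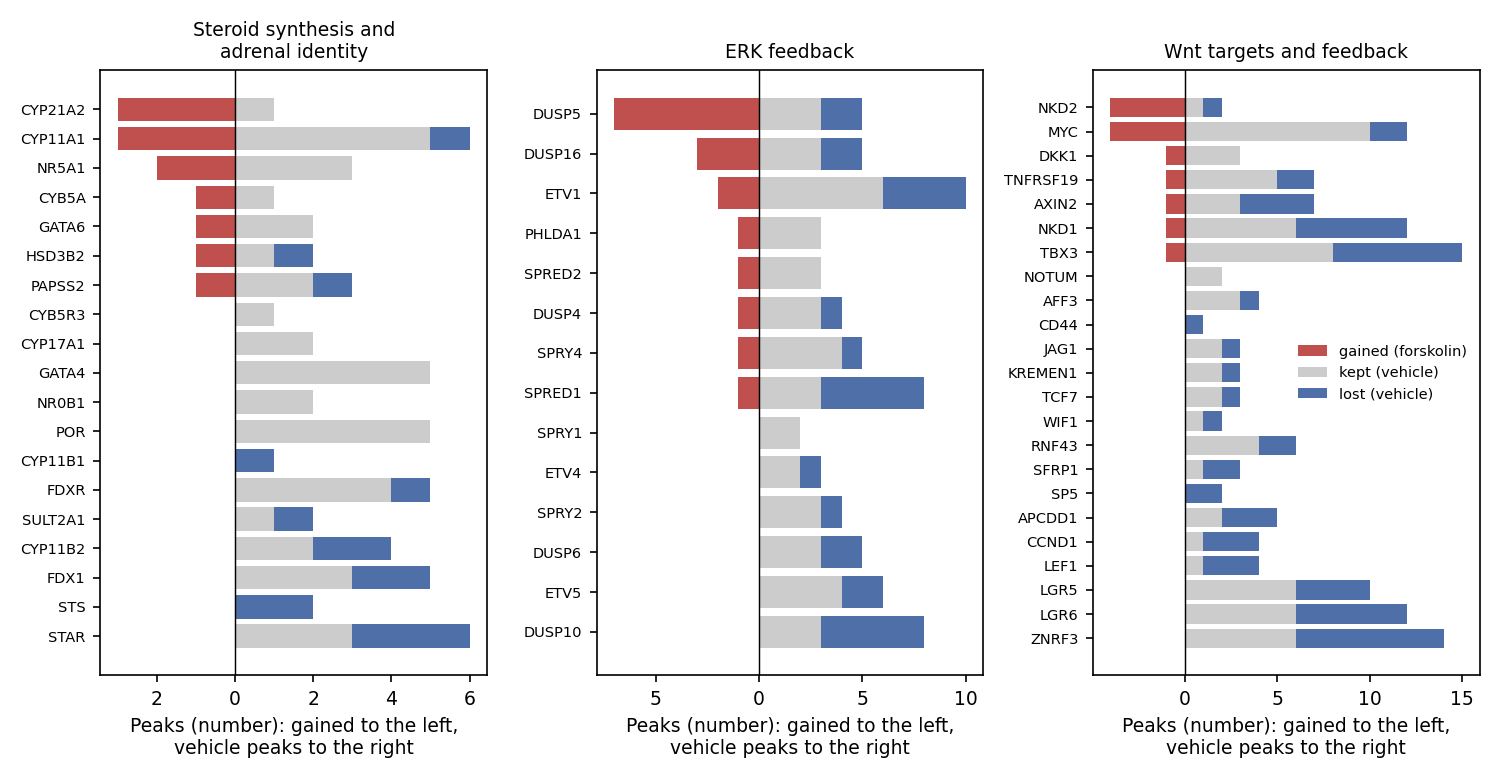
Numbers of peaks assigned to each gene with a peak in 3 gene lists: gained forskolin peaks to the left of 0 (red), kept (grey) and lost (blue) vehicle peaks to the right. DUSP5 has 7 gained peaks, CYP21A2 and CYP11A1 3 each, and blue segments are common down the Wnt panel, where SP5 and CD44 keep none.

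DUSP5, which encodes a nuclear phosphatase of the kinase ERK, had the gained peak of largest area in the comparison, of area 2701, and 6 more gained peaks around it. Peaks of the EZH2 inhibitor and CBP inhibitor lists also covered the position of that largest peak. DUSP5 had 11 peaks with forskolin, 5 with the EZH2 inhibitor, 8 with the CBP inhibitor and 5 with vehicle. Of the 11 forskolin peaks 7 were gained, with 1.597 expected. The other gained ones had areas between 211 and 1002 and lay between 1526 bp and 80309 bp from the gene. The DUSP5 promoter peak had an area of 2831 with forskolin (7.378% of peaks larger) and of 5863 with vehicle (1.719% larger). The vehicle peak there also spanned a further forskolin peak, of area 653.2. Over the 14 ERK feedback genes 17 of 64 forskolin peaks were gained (26.56%, 13.52% expected) and 45 of 71 vehicle peaks were kept (63.38%, 71.71% expected). At areas of at least 400 the gained share was 3.356 points over expectation and the kept share 3.609 points over it. Without DUSP5 10 of 53 forskolin peaks were gained (18.87%, 13.31% expected). DUSP16, a phosphatase of JNK and p38, gained 3 of 7 (1.154 expected) and lost 2 of 5 (1.481 expected). DUSP6, a cytoplasmic ERK phosphatase, gained 0 of 3 and lost 2 of 5 (0.8971 expected), including one of area 1124. SPRED1 and DUSP10 lost 5 of 8 each (3.157 and 3.147 expected). All 14 genes had a gene-end peak in both lists.

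Wnt target genes lost more peaks than their areas gave. The 23 targets and feedback genes of the pathway gained 13 of 87 forskolin peaks (14.94%, 14.52% expected) and kept 75 of 136 vehicle peaks (55.15%, with an interval from 46.76% to 63.25%, and 68.6% expected). Leaving out TBX3, the gene with most vehicle peaks, gave 67 of 121 kept (55.37%, 70.03% expected). TBX3 lost 7 peaks with 6.444 expected, so its removal could hardly weaken the deficit. ZNRF3, NKD1, AXIN2 and LEF1 had more losses above expectation and were not left out. SP5, a transcription factor induced by beta-catenin, had 0 peaks with forskolin, against 2 each with the EZH2 inhibitor, the CBP inhibitor and vehicle. The lost SP5 promoter peak, over the window shown above, had an area of 527.3. CCND1, which encodes cyclin D1, had 1 peak with forskolin, 3 with the EZH2 inhibitor, 3 with the CBP inhibitor and 4 with vehicle, and its gene-end peak of area 355 was lost. LEF1, one of the DNA-binding partners of beta-catenin, had 1 peak with forskolin, 2 with the EZH2 inhibitor, 2 with the CBP inhibitor and 4 with vehicle. AXIN2, the standard feedback target, lost 4 of 7 (1.87 expected), including a peak of area 1196 inside the gene. ZNRF3, a ubiquitin ligase that removes Wnt receptors, gained 0 of 5 forskolin peaks and lost 8 of 14 vehicle peaks (4.241 expected), and NKD1 gained 1 of 7 and lost 6 of 12 (3.069 expected). CD44 and LGR6 also lost their gene-end peak, of area 333.3 and of area 201.9 near the floor of 200. Altogether 4 of the 19 targets with one lost it, against 4.94% of all genes, a comparison not matched on area. The 4 peaks were small. Over all genes the median area was 359.4 at genes that lost one and 2477 at genes that kept one. NOTUM, which encodes a secreted Wnt inhibitor, gained 0 of 2 and lost 0 of 2, and its peak near 1 gene end had areas of 371.7 with forskolin and 440.5 with vehicle. NOTUM was the 1 target counted as gaining a gene-end peak, since that shared peak met the 1 kb limit with forskolin only. MYC gained 4 of 14 forskolin peaks (1.497 expected) and lost 2 of 12 vehicle peaks (1.707 expected), and NKD2, another feedback gene, gained 4 of 6 (1.433 expected) and lost 1 of 2 (0.2137 expected).

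Shared peaks of the Wnt targets ranked lower with forskolin more often than higher, as did those of all genes. Of their 70 pairs, 6 were over 10 points higher and 22 over 10 points lower, against 5196 higher and 6284 lower of the 32003 pairs of all genes, and the median shift was -1.90 points, against -0.41 over all genes. The 25 genes that carry the Wnt signal gained 14 of 105 forskolin peaks (13.33%, 16.11% expected) and kept 87 of 111 vehicle peaks (78.38%, 74.51% expected), and the 24 of them with a vehicle gene-end peak all had one with forskolin. Their kept share minus expectation was 3.867 points over all peaks and -5.202 points at areas of at least 400. TCF7L2, which encodes the TCF4 partner of beta-catenin, gained 4 of 11 forskolin peaks (2.424 expected) and lost 0 of 7 vehicle peaks (0.4045 expected). Its 7 shared pairs had a median shift of -26.42 points.

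**Figure D4:**
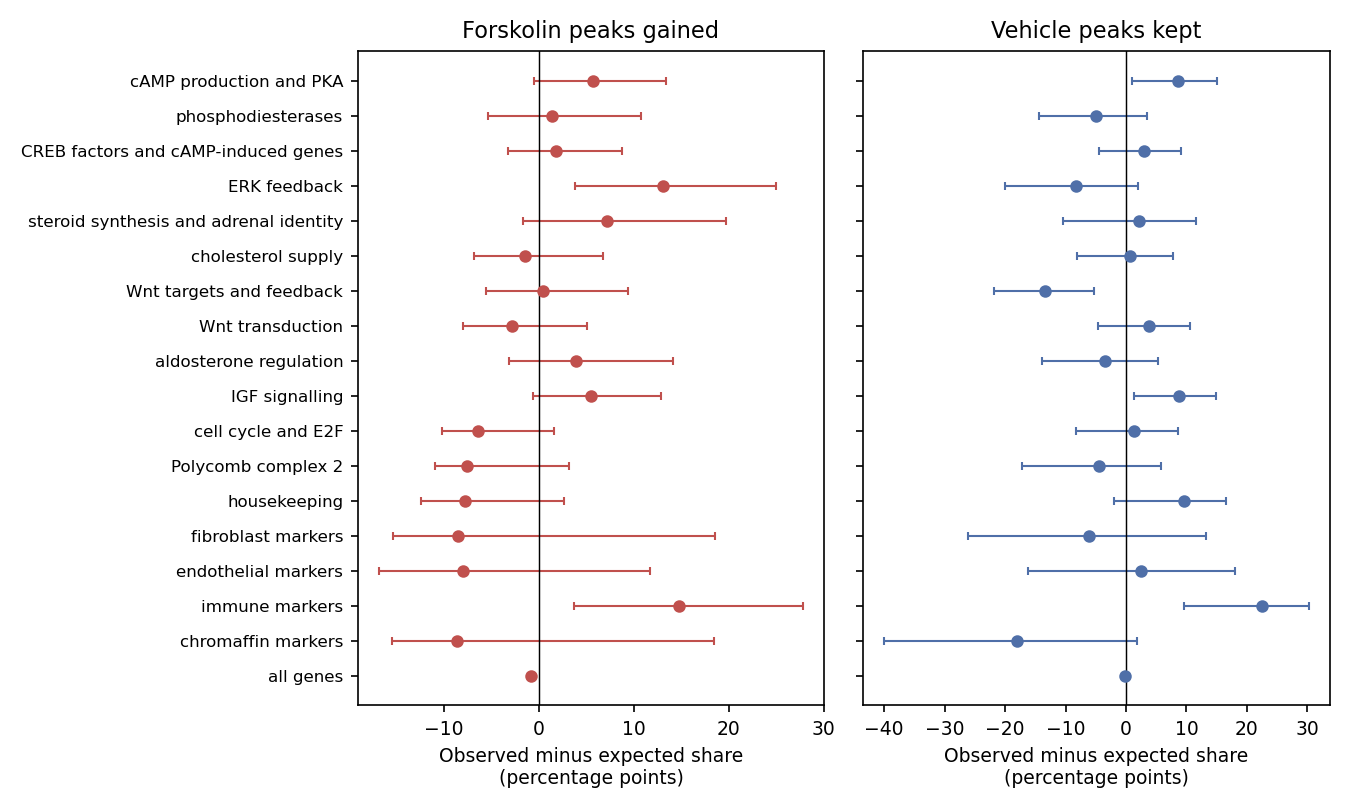
Observed minus expected share, in percentage points, of forskolin peaks gained (left) and vehicle peaks kept (right) for each gene list and for all genes, with bars for the 95% Wilson interval of the observed share (counting error only). ERK feedback genes lie at 13.04 points in the left panel, Wnt targets at -13.45 points in the right panel, and all genes near 0.

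Other lists gave smaller or single-gene differences. IGF signalling genes gained 36 of 151 forskolin peaks (23.84%, 18.39% expected) and kept 114 of 150 vehicle peaks (76.0%, 67.31% expected). GRB10, an adaptor that restrains the insulin and IGF1 receptors, held 28 of the gained ones, and without it the list gained 10.26% of 78 forskolin peaks (17.82% expected) and kept 71.74% of 92 vehicle peaks (72.39% expected). Cell cycle genes gained 5 of 75 forskolin peaks (6.667%, 13.1% expected), Polycomb repressive complex 2 genes 2 of 43 (4.651%, 12.24% expected) and housekeeping genes 4 of 52 (7.692%, 15.47% expected). The share of vehicle peaks kept was 78.02% for cell cycle genes (76.73% expected), 69.49% for Polycomb genes (74.01% expected) and 85.45% for housekeeping genes (75.9% expected). Immune marker genes gained 19 of 56 forskolin peaks (33.93%, 19.18% expected) and kept 39 of 46 vehicle peaks (84.78%, 62.24% expected), of which IKZF1, a lymphoid transcription factor gene on chromosome 7, held 16 of the gained and 32 of the kept. Fibroblast markers kept 11 of 21 vehicle peaks (52.38%, 58.45% expected) and endothelial markers 17 of 27 (62.96%, 60.4% expected). Chromaffin markers kept 10 of 18 (55.56%, 73.66% expected), a difference of -18.1 points, the lowest of the 17 lists, with 4.742 losses expected and 8 found.

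ADCY1, GRB10 and IKZF1 lie on chromosome 7, and gained peaks were dense over parts of that chromosome and a few others. Chromosomes 22, 9, 7 and 13 had the highest gained shares, 24.03%, 21.4%, 20.73% and 20.63%, against 9.593% on chromosome 19. Of 2870 windows of 1 Mb with a peak, 54 held 10 or more gained peaks each and together 1308, which is 16.15% of all gained peaks, and 13 of these windows were on chromosome 7 and 9 on chromosome 9. Within 136 to 137 Mb of chromosome 9, the window with most, 87 of 144 forskolin peaks were gained (26.83 expected) and 4 of 58 vehicle peaks were lost (12.48 expected). There the EZH2 inhibitor list held 149 peaks and the CBP inhibitor list 105. Between 113 and 114 Mb of chromosome 13 there were 113 peaks with forskolin, 91 with the EZH2 inhibitor, 89 with the CBP inhibitor and 56 with vehicle. All 3 treatment lists share the vehicle list, so a low vehicle count there enters every comparison. Over the 54 windows together the lists held 3689 (forskolin), 3360 (EZH2 inhibitor), 2861 (CBP inhibitor) and 3058 (vehicle) peaks. The whole lists held 51095, 41086, 47161 and 61016 peaks in the same order. These windows were picked by their gained forskolin peaks, so a forskolin count above the vehicle count there is partly set by the choice.

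Of the 10 genes with the most gained peaks above expectation, 6 lay on chromosome 7, 3 on chromosome 13 and 1 on chromosome 9. RASA3, a Ras GTPase-activating protein gene on chromosome 13, gained 32 of 55 forskolin peaks (9.316 expected) and had 55 peaks with forskolin, 66 with the EZH2 inhibitor, 62 with the CBP inhibitor and 29 with vehicle. COBL and TNS3, both on chromosome 7, gained 32 of 89 (17.02 expected) and 30 of 65 (12.1 expected). CAMK2B, a calmodulin-dependent kinase gene, gained 18 of 38 with 3.103 expected and lost 0 of 34 with 9.538 expected. Lost peaks were less concentrated: a window held at most 87 gained peaks (median 2 over windows) and at most 28 lost peaks (median 6). PALM2AKAP2, a gene of an A-kinase anchoring protein, gained 1 of 4 forskolin peaks and lost 10 of 13 vehicle peaks (5.337 expected), the most above expectation of any gene. NRCAM, a neural adhesion gene, gained 3 of 7 and lost 8 of 12 (3.892 expected), and PLAGL1, an imprinted zinc finger gene, gained 0 of 4 and lost 7 of 11 (3.093 expected). The window from 29 to 30 Mb of chromosome 22, with ZNRF3 and KREMEN1 among its genes, had 0 of 21 forskolin peaks gained (1.64 expected). In that window 21 of 43 vehicle peaks were lost (13.69 expected).

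Promoter sequence was compared between states of the 22001 RefSeq promoter windows of protein-coding genes, each from 250 bases before to 50 bases after the start. A gene can have several windows, which may overlap. The intervals below take windows as independent, which they are not. Of the 8158 windows without a vehicle peak 2.84% had a forskolin peak, and of the 13843 windows with a vehicle peak 4.57% had no forskolin peak. Of the 232 windows with a forskolin peak only, 139 overlapped a gained peak. The others met the edge of a peak that overlapped a vehicle peak elsewhere. Of the 633 windows with a vehicle peak only, 484 overlapped a lost peak. The 139 came from 122 genes and the 484 from 444 genes. Below they are called windows in gained or lost peaks, although the overlap could be a few bases. The letters TGANTCA, bound by AP-1 factors such as JUN and FOS, were in 19.42% of the windows in gained peaks (27 of 139, interval 13.71% to 26.79%) and in 5.579% of the windows in lost peaks (27 of 484, 3.862% to 7.995%). They were in 3.952% of windows with a peak in both lists, 9.664% of windows with a peak in neither and 6.159% of all windows. At CYSRT1, MED9, PRDM13 and TNFRSF8 the match lay in the window but outside the gained peak. Some matches counted for lost peaks also lay outside the peak, as at CCDC22 and FGF11. At SLC34A3 the same match was counted in overlapping windows. Besides CYP19A1 and PTAFR, windows in gained peaks with these letters included those of EGFR, the epidermal growth factor receptor gene, and CXCL8, which encodes a chemokine. The GC content of the windows had a median of 65% in gained peaks, 59% in lost peaks, 66.67% in both lists and 52.33% in neither.

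Matches to the NR5A1 letters, the full cAMP response element and the TCF letters were few in every state. The letters CAAGGTCA, bound by NR5A1 and related receptors, were in 2.878% of windows in gained peaks (4 of 139, 1.125% to 7.165%) and in 1.24% of windows in lost peaks (6 of 484, 0.5694% to 2.678%), against 1% of all windows. The 4 were at GIPR, KLK13, NLRC4 and PTAFR. The full cAMP response element TGACGTCA, which holds the shorter TGACG, was in 0 of 139 windows in gained peaks, which allows a share of up to 2.158% (3 counts), in 2.893% of windows in lost peaks, in 3.081% of windows with a peak in both lists and in 2.245% of all windows. TGACG alone was in 21.58% of windows in gained peaks, 23.97% of windows in lost peaks and 27.81% of all windows. The TCF letters CTTTGAA were in 0 of 139 windows in gained peaks and in 5.372% of windows in lost peaks, against 5.892% of windows with a peak in neither list and 2.241% with a peak in both and 3.632% of all windows. The related CTTTGAT was in 2.158% of windows in gained peaks, 1.446% of windows in lost peaks and 2% of all windows. The ETS letters CCGGAAGT were in 2.158% of windows in gained peaks, 5.165% of windows in lost peaks and 5.318% of all windows. The GATA letters AGATAA were in 5.036% of windows in gained peaks, 10.12% of windows in lost peaks and 7.904% of all windows. GC content differed between the states, as given above, and its part in these shares was not tested. The SP5 window held CTTTGAA 2 times and CTTTGAT 1 time. A match is a run of letters and not a measured binding site.

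**Figure D5:**
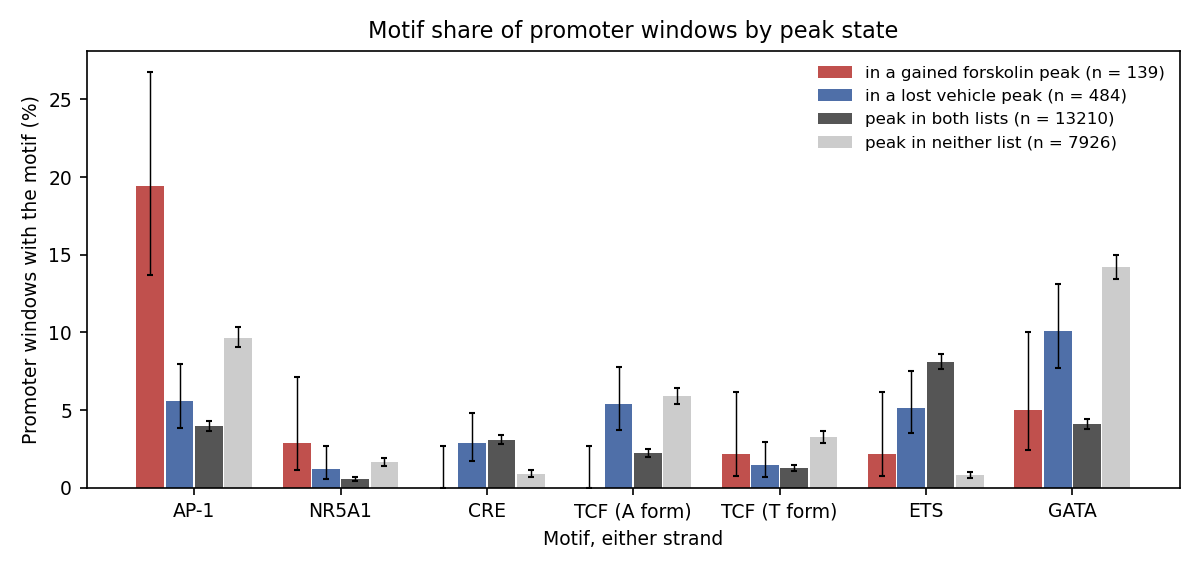
Percentage of RefSeq promoter windows (300 bp) that hold a motif on either strand. Windows are split by overlap with a gained forskolin peak, a lost vehicle peak, peaks of both lists or none. The 95% Wilson intervals cover counting error only and take windows as independent. The AP-1 bar for gained peaks stands at 19.42%, above the other 3 AP-1 bars.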

How the data were processed

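Peak lists of 4 groups of NCI-H295R ATAC-seq libraries were deposited, 1 per group with 2 libraries behind each, and the forskolin and vehicle lists were compared. Bowtie2, Genrich and deepTools 2.0 are named in the submitters' processing notes; the sources used here do not say how Genrich joined the libraries, nor its thresholds. Coordinates are on hg38, per the submitters' processing notes. The deposited lists hold the authors' area per peak (a signal), a score derived from it and a -log10 p-value; depth is unknown. Peaks were joined by overlap of at least 1 bp. Gene ends come from RefSeq (19974 protein-coding genes) and promoters from its GRCh38.p14 table. Expected shares use 20 area bins. The genes named were those with most lost or gained peaks above expectation, peaks with the largest shifts, and list members by lost plus gained peaks; others named from the lists, and C1R, SUFU, GIPR, CYP19A1, PTAFR, EGFR and CXCL8, were chosen after their values were seen. The members and the 17 gene lists were chosen with earlier results of these data known. The scripts, in Python 3.11.15 with numpy 2.4.6, pandas 2.3.3 and scipy 1.17.1, were tested on simulated data. Alternatives varied the overlap, area limit, list length, gene-end window and gene assignment.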

Additional observations from a re-analysis of the deposited data

How the results depend on the processing

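With lists of the same length 11147 vehicle peaks were lost, and with areas of at least 400 in both lists 4049 forskolin peaks were gained. The share kept at gene ends minus that elsewhere was 27.83 points; it was 29.91 with 50% of the peak covered, 30.56 at areas of at least 400, 21.62 with lists of the same length, and 29.87 and 23.95 with gene-end windows of 500 bp and 2500 bp. The rank correlation of 0.8445 was 0.878 with 50% covered, 0.8485 by summit, 0.8784 at areas of at least 400, 0.8539 with lists of the same length and 0.7048 on area divided by width. The ERK feedback excess of gained peaks, 13.04 points, was 3.356 at areas of at least 400 and 0.4047 for summits inside the genes only. The Wnt target deficit of kept peaks, -13.45 points, lay between -15.48 and -11.09 under all 8 alternatives run. Kept shares changed sign for cAMP production genes without ADCY1 (-0.6451 points) and for IGF genes at areas of at least 400 (-4.234) and without GRB10 (-0.6547); leaving out a gene was an alternative chosen after seeing the data. At areas of at least 400 the sign also turned for the kept shares of ERK feedback (3.609), Wnt transduction (-5.202), housekeeping (-2.901), cell cycle (-3.278) and endothelial genes (-5.355) and for the gained shares of steroid (-1.182) and fibroblast genes (8.768). Over the 32 other list results, 222 of 256 values under alternatives had the sign of the main one, and the other changes of sign included the gained share of cAMP production genes with peaks assigned within 25 kb (-0.7884) and the kept share of chromaffin markers for summits inside the genes only (2.147). The cause of these shifts was not tested. Motifs in windows around summits were not run, since no genome was used here. No paired analysis was possible because each group is a single pooled list, and for the same reason no library could be left out.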

Other observations

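Some genes outside the lists lost every peak assigned to them. Of 6493 genes with 3 or more vehicle peaks, 47 lost all of them and 1424 lost 0. EPSTI1, an interferon-responsive gene, had 0 peaks with forskolin and 6 with vehicle, with 2.97 losses expected from their areas. CCK, which encodes the peptide hormone cholecystokinin, had 0 with forskolin and 4 with vehicle (1.789 losses expected), and NSUN2, an RNA methyltransferase gene, also had 0 with forskolin and 4 with vehicle (1.05 expected), while its gene-end peak, assigned to another gene, had areas of 6030 with forskolin and 7233 with vehicle. At the other end, MYLK, the gene of myosin light chain kinase, had 10 peaks with forskolin and 10 with vehicle, none gained and none lost.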
